A study of Mus musculus with 6 samples.

Results

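The Iroquois homeobox genes Irx1, Irx2, Irx3, Irx4, Irx5 and Irx6 were found by symbol in a table of 24341 genes measured in mouse embryonic lung, and all 6 had a row. Whole lungs had been taken at E12.5, in mid-gestation, from C57BL/6 embryos of 2 genotypes, with 3 RNA-seq libraries each. The control genotype was Shh-Cre;Sin3a flox/+, with 1 floxed and 1 wild-type Sin3a allele, and the mutant genotype was Shh-Cre;Sin3a flox/flox. Both groups carried Shh-Cre, in which the Shh gene drives a Cre recombinase; in the early lung Shh is expressed by the epithelium. The RNA came from all cells of the lung, mesenchyme included, so in these bulk samples fewer cells of a type and less RNA per cell cannot be told apart. The labels do not say whether the libraries came from separate embryos or litters, so p-values measure the spread between these libraries only.

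Iroquois genes encode homeodomain transcription factors of the TALE class, whose homeodomain carries extra residues in a loop between helices, and which bind DNA alone or with other TALE proteins. In the mouse they lie in 2 clusters of 3 genes, Irx1, Irx2 and Irx4 on chromosome 13 and Irx3, Irx5 and Irx6 on chromosome 8, and each gene has its closest relative in the other cluster (Irx1 with Irx3, Irx2 with Irx5, Irx4 with Irx6). They are known for setting up territories in the developing nervous system, heart and limb, and Irx1, Irx2, Irx3 and Irx5 are known to be expressed in the branching lung epithelium. Sin3a encodes the scaffold of a histone deacetylase complex that represses transcription.

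Irx2 fell in the mutant lungs, to a mean of 1.26 FPKM from 3.58 FPKM in the controls, a 2.84-fold difference. Irx5, Irx3 and Irx1 had mutant means 2.02-fold, 2.21-fold and 1.67-fold under their control means, and none of these 3 passed the threshold across all genes. Irx4 and Irx6 were at or near the floor in every library of both groups. FPKM scales the fragments of a gene by its transcript length and by how many fragments of the library were mapped, so these levels can be compared between genes. The floor of 0.01 FPKM stands in the table where no expression was measured.

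A window at the homeobox, the stretch of coding sequence for the homeodomain, was located as the stretch of the 6 reading frames most alike to Irx2. It shows how well reads of 75 bases can be told apart between members. Its ends were not matched to an annotated homeodomain and need not be those of the homeobox. The sequences are those of the GENCODE M21 transcripts on GRCm38 for the 4 members above the floor, 189 bases (63 codons) each, 5′ to 3′ along the coding strand, and all 4 lie in exon 2. Irx2 covers codons 119 to 181 at chr13:72630673-72630861 on the plus strand and Irx1 codons 131 to 193 at chr13:71959983-71960171 on the minus strand. Irx5 covers codons 116 to 178 at chr8:92359636-92359824 on the plus strand and Irx3 codons 134 to 196 at chr8:91800487-91800675 on the minus strand. Capitals mark the bases that differ from Irx2.
Irx2: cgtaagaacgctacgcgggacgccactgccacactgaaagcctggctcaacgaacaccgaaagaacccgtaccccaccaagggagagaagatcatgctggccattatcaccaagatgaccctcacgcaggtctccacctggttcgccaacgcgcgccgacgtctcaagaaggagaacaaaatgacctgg
Irx1: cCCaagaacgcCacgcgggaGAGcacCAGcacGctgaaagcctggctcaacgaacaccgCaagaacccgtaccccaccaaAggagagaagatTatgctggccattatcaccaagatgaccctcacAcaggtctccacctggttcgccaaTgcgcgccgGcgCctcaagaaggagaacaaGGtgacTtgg
Irx5: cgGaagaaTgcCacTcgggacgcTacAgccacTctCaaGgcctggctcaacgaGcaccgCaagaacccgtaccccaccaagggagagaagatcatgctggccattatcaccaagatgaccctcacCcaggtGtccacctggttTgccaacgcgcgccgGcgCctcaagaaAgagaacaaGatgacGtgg
Irx3: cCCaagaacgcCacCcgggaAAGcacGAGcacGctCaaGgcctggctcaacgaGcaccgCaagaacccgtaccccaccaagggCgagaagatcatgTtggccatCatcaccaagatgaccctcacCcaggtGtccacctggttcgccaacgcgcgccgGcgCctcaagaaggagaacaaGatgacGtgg
Irx5 differs from Irx2 at 19 of the 189 bases, Irx1 at 20 and Irx3 at 24. All 19 differences of Irx5 fall on the last base of a codon, as do 14 of the 20 in Irx1 and 18 of the 24 in Irx3. Between relatives in the 2 clusters, 91.5% of the bases were identical for Irx1 and Irx3, 89.9% for Irx2 and Irx5 and 91% for Irx4 and Irx6. The most alike pair was Irx3 and Irx6, at 92.6%. A stretch of 75 bases inside this window differs between Irx2 and Irx5 at no fewer than 2 bases, and between Irx2 and Irx1 at no fewer than 3.

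Over the whole transcripts, no stretch of 75 bases of Irx1, Irx2, Irx4 or Irx5 occurs in the transcript of another gene. Of the 2536 such stretches of Irx3, 64 (2.52%) do, 50 of them in its antisense partner Irx3os and 14 in Irx6. The library kit does not mark strand, and Irx3os overlaps Irx3 on the opposite strand, so reads from this shared stretch cannot be assigned to 1 of the 2 genes. Of the 3296 stretches of Irx6, 69 (2.09%) are shared, 55 of them with the opposite strand of Gm45505 and 14 with Irx3.

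Depth is not given by the table and was estimated from the steps between low FPKM values, at 8100000 to 20000000 fragments a library, with control library 3 and mutant library 1 the shallowest. Sin3a, the targeted gene, stood at 18.6 to 19.5 FPKM in the controls and 16.3 to 18.8 FPKM in the mutants (log2 change -0.07, SE 0.09, adjusted p = 0.677), so whole-lung Sin3a does not tell the groups apart and the groups rest on the labels. Among the 12742 genes that averaged 1 FPKM or more, limma called 426 (3.34%) at an adjusted p under 0.05, 208 of them (1.63%) lower and 218 higher in the mutants (179 lower and 845 higher after removal of globin and small RNA genes). In 1859 genes (14.6%) every mutant library lay under every control library.

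Of the 6 Iroquois genes, 3 had a mean of at least 1 FPKM and were tested (Irx2, Irx3 and Irx5), and 1 of these was called, beside 3.34% of all tested genes. Irx1, at a mean of 0.978 FPKM over the 6 libraries, lay just under this filter. Among the 3419 tested genes with a mean of 1 to 5 FPKM, the range of these members, limma called 3.42%, 1.67% as lower, and 8.75% had every mutant library under every control library.

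Irx2 (chr13:72628978-72634194, GRCm38) stood at 3.34, 3.07 and 4.33 FPKM in control libraries 1, 2 and 3 and at 0.852, 1.31 and 1.62 FPKM in mutant libraries 1, 2 and 3. The groups did not overlap, and the highest mutant library was well under the lowest control library. The means were 3.58 ± 0.664 and 1.26 ± 0.389 FPKM (SD, n = 3 each). On the log2(FPKM + 1) scale the change was -1.02 (SE 0.18, 95% interval -1.44 to -0.61, adjusted p = 0.0337 by limma), and it ranked 120 from the lowest among the 12742 changes. An exact permutation test of the 6 values gave p = 0.1, the smallest that 3 against 3 libraries allow. The values rest on an estimated 97 to 136 fragments in the controls and 18 to 72 in the mutants, a counting error of 8.6% to 23%. The limma call was lost without control library 1, 2 or 3 (adjusted p = 0.110, 0.115 and 0.114) and without mutant library 2 (adjusted p = 0.134), with changes of -1.10 to -0.91. It held without mutant library 1 or 3 (adjusted p = 0.0408 and 0.0409).

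Irx1 (chr13:71958232-71963723), the neighbour of Irx2 in the same cluster, stood at 0.896, 1.04 and 1.74 FPKM in the controls and at 0.552, 0.870 and 0.774 FPKM in the mutants. The mutant values all lay under the control values, but the gap between the highest mutant and the lowest control library was only a few hundredths of an FPKM. The means were 1.22 ± 0.453 and 0.732 ± 0.163 FPKM (SD, n = 3 each; exact permutation p = 0.1). In a fit with no filter on low values, in which 242 of 18801 genes (1.29%) were called, the change of Irx1 was -0.35 (SE 0.16, 95% interval -0.73 to 0.04, adjusted p = 0.317). Without control library 3 that change was -0.19.

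Irx4 (chr13:73260497-73269620), known from the ventricles of the heart, was listed at 0.0477, 0.0590 and 0.0449 FPKM in the controls, at 0.0559 FPKM in mutant library 2 and at the floor in mutant libraries 1 and 3. These values stand for an estimated 0 to 3 fragments, too few to compare the groups (exact permutation p = 0.3). The ventricular markers Myl2 and Myl3 were also low, at 0.264 to 1.88 FPKM and 0.01 to 0.946 FPKM in the controls and 0.01 to 2.30 FPKM and 0.175 to 1.005 FPKM in the mutants.

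Irx5 (chr8:92357796-92361456), the relative of Irx2 in the other cluster, stood at 3.17, 2.84 and 4.75 FPKM in the controls and at 1.44, 1.91 and 1.98 FPKM in the mutants. The groups did not overlap. The means were 3.59 ± 1.02 and 1.78 ± 0.294 FPKM (SD, n = 3 each), and the log2 change was -0.71 (SE 0.18, 95% interval -1.13 to -0.28). Its unadjusted p was 0.0055 and its adjusted p 0.0814 by limma, so it missed the threshold of 0.05 (exact permutation p = 0.1). At an adjusted p under 0.10, which 1138 genes (8.93%) reached, Irx2 and Irx5 were the members called.

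Irx3 (chr8:91798511-91801654), which lies in the same cluster as Irx5, varied most among libraries, at 2.08, 1.12 and 4.42 FPKM in the controls and 0.581, 0.980 and 1.89 FPKM in the mutants. The groups overlapped, with mutant library 3 above control library 2. The means were 2.54 ± 1.69 and 1.15 ± 0.668 FPKM (SD, n = 3 each), with a log2 change of -0.66 (SE 0.36, 95% interval -1.50 to 0.19, adjusted p = 0.323; exact permutation p = 0.2). The size of this value rested on control library 3, without which the change was -0.30. Irx6 (chr8:92674289-92680956), known from the retina, was listed at 0.0180, 0.0222 and 0.01 FPKM in the controls and 0.01, 0.0140 and 0.0168 FPKM in the mutants, no more than about 1 fragment a library, so a difference was not detectable at this depth (exact permutation p = 0.5).

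**Figure D1:**
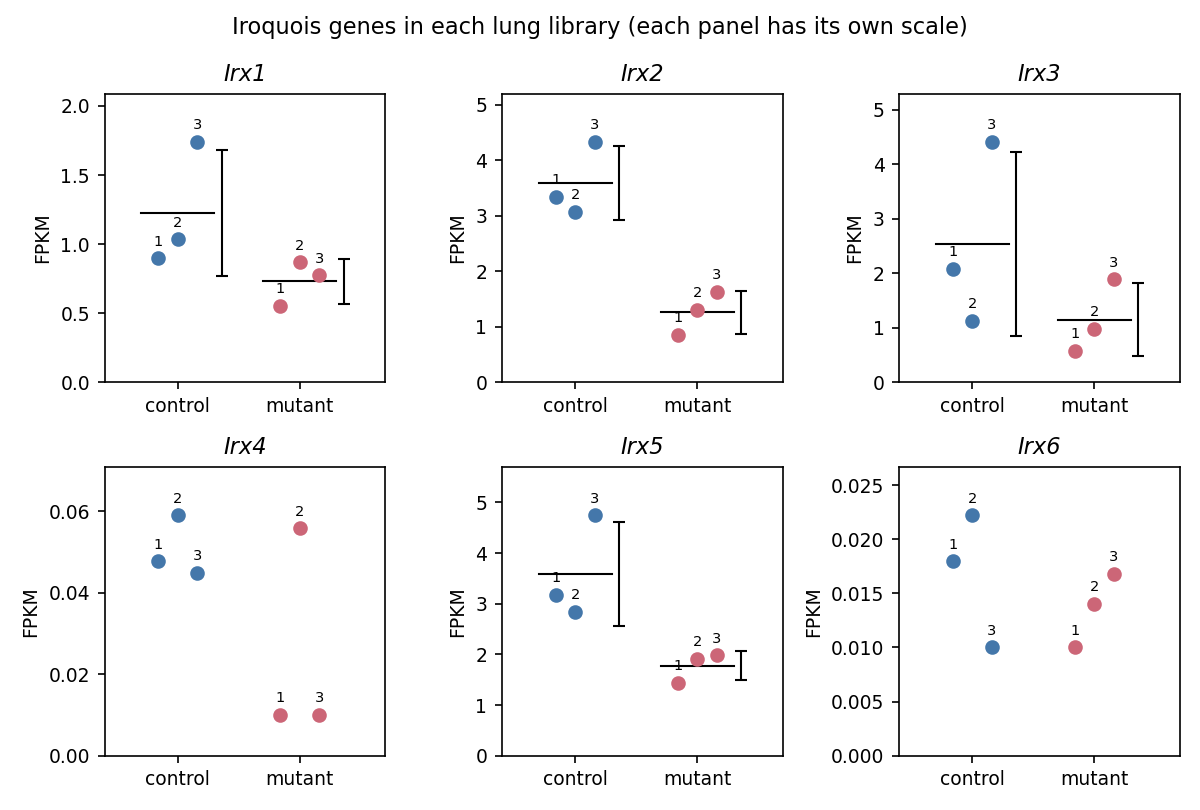
FPKM of each Iroquois gene in each library (numbers are library numbers; horizontal lines are group means and bars are ± 1 SD over 3 libraries, left out for Irx4 and Irx6, whose values are at or near the floor). Each panel has its own scale. The mutant values of Irx1, Irx2 and Irx5 all lie under the control values, those of Irx3 overlap them, and Irx4 and Irx6 stay under 0.06 FPKM.

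The order of the levels was the same in both groups, from Irx5 and Irx2 over Irx3 and Irx1 down to Irx4 and Irx6. In the controls, Irx5 (3.59 FPKM) and Irx2 (3.58 FPKM) were level, and neighbours in the order overlapped from Irx5 down to Irx1. The gap from Irx1 to Irx4 was wide in both groups, with the lowest Irx1 library at 0.552 FPKM and the highest Irx4 library at 0.0590 FPKM. The summed level of the 6 genes was 11.0 ± 3.78 FPKM in the controls (8.15 to 15.3) and 4.96 ± 1.43 FPKM in the mutants (3.45 to 6.29; SD, n = 3 each), and the groups did not overlap. Irx2 made up 28.3% to 37.7% of this sum in the controls and 24.7% to 25.8% in the mutants, and Irx5 31.0% to 34.8% and 31.5% to 41.8%.

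Members were then compared with each other inside each library, as the difference of their log2(FPKM + 1) values, for 5 pairs of relatives or cluster neighbours. Irx2 minus Irx5 was 0.01 ± 0.10 in the controls and -0.31 ± 0.11 in the mutants (SD, n = 3 each), a shift of -0.32 in which the groups did not overlap (exact permutation p = 0.1, adjusted p = 0.25 over the 5 pairs). Irx1 minus Irx2 was -1.05 ± 0.13 and -0.37 ± 0.17, a shift of 0.68 whose groups also did not overlap (p = 0.1, adjusted p = 0.25, exact permutation test). Irx2 was thus level with Irx5 in the controls and under it in the mutant libraries, where it was also nearer to Irx1. The pseudocount damps the changes of a low gene such as Irx1 more than those of Irx2. Irx1 minus Irx3 shifted by 0.31 and Irx3 minus Irx5 by 0.05, both with overlapping groups (exact permutation p = 0.5 and 0.9, adjusted p = 0.625 and 0.9). Irx4 minus Irx6 is a difference between values at the floor and cannot be read. With 3 against 3 libraries no pair could pass 0.05.

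The libraries of a group differed in the same sense for most members. Control library 3 was the highest control library for all 4 members above the floor, and mutant library 1 was the lowest mutant library for all 4. These were also the 2 shallowest libraries, and the part of depth in this order was not tested. The mean log2(FPKM + 1) of 17 tested lung epithelium markers stood at 3.69, 3.44 and 3.87 in the controls, by library number, against 2.56, 2.99 and 3.03 in the mutants (means 3.67 ± 0.22 and 2.86 ± 0.26, exact permutation p = 0.1). Irx2, Irx3 and Irx5 ordered the libraries as these markers did in both groups, and Irx1 did not; 692 of the 12742 tested genes (5.43%) shared that order. The epithelium markers moved with the Iroquois genes, and their part in the Iroquois differences was not tested. The within-library differences that follow set the values side by side and do not measure that part.

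Relative to the mean of the epithelium markers in the same library, Irx2 was at -1.48 ± 0.08 in the controls and -1.70 ± 0.08 in the mutants (SD, n = 3 each), a shift of -0.22 on the log2 scale with no overlap (exact permutation p = 0.1). This shift turned to 0.28 when Epcam alone was the reference, so its direction depends on the markers chosen. Irx5 shifted by 0.10 (p = 0.4) and Irx3 by 0.15 (p = 0.7, exact permutation tests), both with overlapping groups. Irx1 shifted by 0.46 and its groups did not overlap, from -2.53 ± 0.20 to -2.07 ± 0.14 (exact permutation p = 0.1). The pseudocount damps the change of Irx1, at a mean of 0.978 FPKM, more than that of higher markers. Irx1 lay under the filter and was not among the members planned for this comparison, and its shift was not repeated with other settings.

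**Figure D2:**
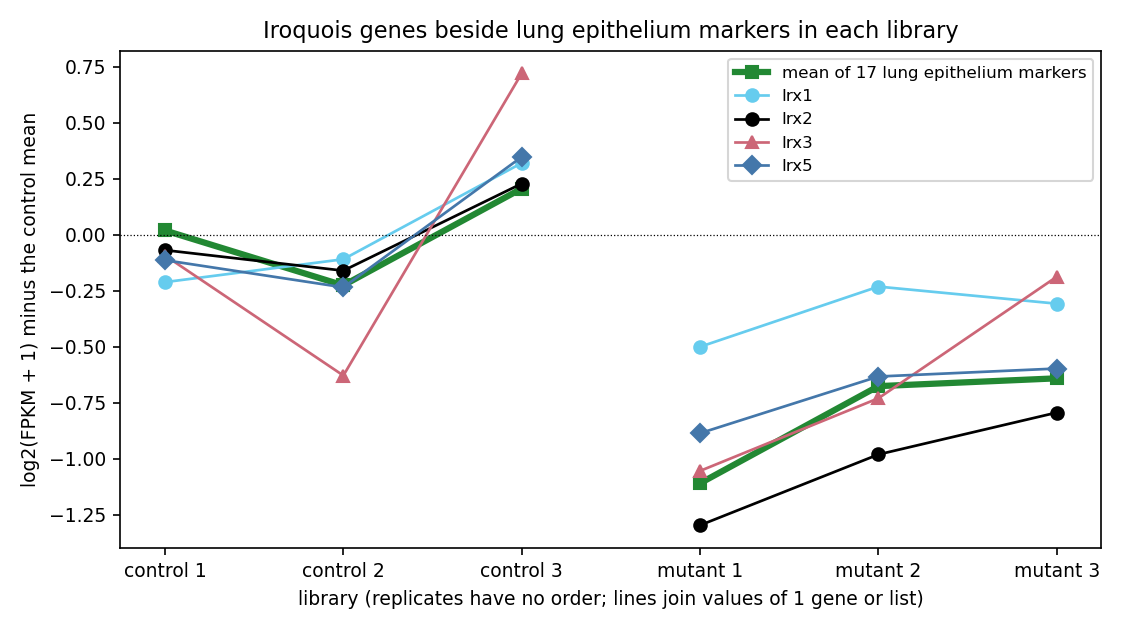
Level of Irx1, Irx2, Irx3, Irx5 and the mean of 17 lung epithelium markers in each library, as log2(FPKM + 1) minus the mean of the 3 control libraries (y axis); lines join the values of 1 gene or of the list within a group. Control library 3 and mutant library 1 are the extremes for most lines. In the mutant libraries Irx2 lies under the line of the markers, while Irx1 and, more narrowly, Irx5 lie above it. Irx3 lies above it in mutant libraries 1 and 3 and under it in mutant library 2.

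Of the 18 epithelium markers 17 were tested, 6 fell and none rose, beside 1.63% of all tested genes called as lower. In 11 the mutant libraries lay entirely under the controls, beside 14.6% of all tested genes. In 1, Krt19 (33.4 to 40.5 FPKM), which is also on the mesothelium list, they lay entirely above. The changes of 15 markers were below 0 and those of 2 above. The median change of the markers was -0.60, beside -0.01 over all tested genes. Their summed level was 330 to 432 FPKM in the controls and 152 to 218 FPKM in the mutants, and none was at the floor in all libraries. Rab25, a vesicle traffic GTPase of epithelia, fell with an adjusted p of 0.000524, and the keratins Krt8 and Krt18 and the adhesion molecule gene Epcam (48.6 to 19.1 FPKM) also fell. The calls of Rab25, Krt8 and Krt18 held with each of the 6 libraries left out, unlike that of Irx2. Leaving out mutant library 2, control library 1 or control library 3 ended the call of Epcam and lowered the count of 6 to 3, and leaving out control library 2 lowered it to 4. Of 15 mesenchyme markers, 4 rose and 2 fell, beside 218 and 208 of all 12742 tested genes. Fgf10 (9.47 to 35.96 FPKM) and Pdgfra (30.6 to 48.6 FPKM) were among those that rose. Foxf1 (71.2 to 34.6 FPKM) and Wnt2 (87.5 to 49.4 FPKM) fell. The summed level of the 15 was 1355 to 1587 FPKM in the controls and 1891 to 2214 FPKM in the mutants. The 2 that fell were called with each library left out, whereas Fgf10 and Pdgfra were not called without control library 1, 2 or 3 or mutant library 2. The count that rose was 0, 0, 1 and 0 without these libraries, 6 without mutant library 1 and 9 after removal of globin and small RNA genes.

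Some markers of other cells that can come with dissected lung were present in both groups. Summed heart muscle markers stood at 163 to 223 FPKM in the controls and 270 to 413 FPKM in the mutants. These sums were mostly Myl7 and Actc1 (37.0 and 44.6 FPKM in controls and mutants). Of 12 listed heart genes, 6 averaged 1 FPKM or more. Among the rest, Myh7 (0.113 and 0.159 FPKM), Nkx2-5 (0.197 and 0.162 FPKM) and Ttn (0.103 and 0.134 FPKM) were low in both groups, and Myh6 stood at 0.141 and 1.65 FPKM. Of 6 tested members 1, Myl7, rose (132 to 238 FPKM), beside 218 of all 12742 tested genes. No heart marker was called when mutant library 2, control library 2 or control library 3 was left out (Myl7 then had an adjusted p of up to 0.0857 by limma), and 3 were called without mutant library 1. Summed neuron markers stood at 37.6 to 81.4 and 45.1 to 65.6 FPKM, with none of 8 tested members called by limma (0 with an unadjusted p under 0.05). Of 5 tested mesothelium markers, 1 rose (Lrrn4, 21.5 to 31.7 FPKM), with an adjusted p of 0.0499 by limma. None was called without control library 1, 2 or 3 or mutant library 2, with no filter, with no intensity trend or with a covariate for Y-linked transcripts. The part of these cells in the Iroquois values was not tested.

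Among transcription factors of the lung epithelium, Irx2 moved beside several others. Of 20 listed, 16 were tested, 6 fell and 1 rose, beside 208 and 218 of all 12742 tested genes. Their median change was -0.33, beside -0.01 over all tested genes. Nkx2-1, which specifies lung identity in the foregut and was present in every library (3.305 to 10.2 FPKM), fell from 9.26 ± 1.07 to 4.08 ± 0.730 FPKM (SD, n = 3 each; adjusted p = 0.0185). Foxa1, a forkhead factor of the endoderm, fell from 6.32 to 1.67 FPKM (log2 change -1.44, adjusted p = 0.0128). Sox2, a factor of the proximal airway, fell 4.41-fold, from 1.64 to 0.371 FPKM (adjusted p = 0.0272). At these low levels the pseudocount damps its log2 change, which was -0.94. Etv4, Foxa2 and Mycn, named to complete the count, also fell. Gata6, an endoderm and mesoderm factor, rose from 29.3 to 50.9 FPKM (adjusted p = 0.0101). Sox9, a factor of the distal tips, stood at 8.99 and 9.18 FPKM (adjusted p = 0.933). Foxa2 and Mycn passed only just under the threshold. Like the call of Irx2, most of these calls needed control libraries 1, 2 and 3 and mutant library 2, without which 1, 1, 0 and 0 of the list were called. Without mutant library 1 or 3, Gata6 still rose, and 5 and 4 of the list fell.

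The Iroquois genes were set beside the other TALE homeobox genes. All 12 of these were tested and limma called none (2 with an unadjusted p under 0.05; median change 0.11, from -0.31 to 0.38; 5 below 0 and 7 above), with 2 called after removal of globin and small RNA genes and 7 with array weights. Meis1, which encodes a DNA-binding partner of homeodomain proteins, stood at 102 FPKM in the controls and 119 FPKM in the mutants (adjusted p = 0.302). Meis2, its relative, stood at 14.3 and 18.9 FPKM (adjusted p = 0.0927).

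**Figure D3:**
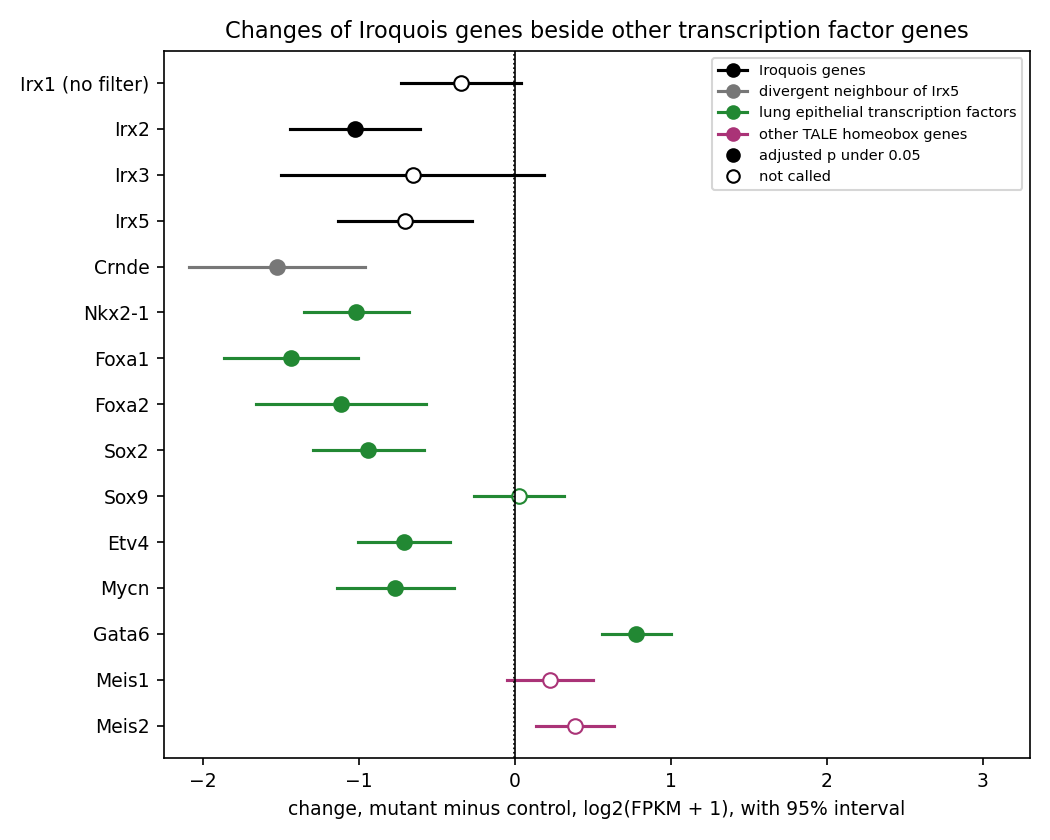
Change of each gene, mutant minus control, as log2(FPKM + 1) with its 95% interval from limma; filled points have an adjusted p under 0.05, the dotted line is the median of all tested genes, and Irx1 is from the fit with no filter. Irx2 lies among the epithelial factors that fell, while Gata6, Meis1 and Meis2 lie to the right of 0.

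Of 11 genes described as Iroquois partners or targets in other tissues, 8 were tested. Of these 1 rose and none fell, beside 218 and 208 of all 12742 tested genes. All 8 changes were above 0 (median 0.23), beside 6209 of the 12742. So were all 6 of the heart and 5 of the mesothelium markers tested, and 7 of 8 neuron and 12 of 15 mesenchyme markers. Above 0 were also 2 of 17 epithelium markers and 6 of 16 epithelial transcription factors. Gja5, the gap junction gene for connexin 40, which Irx3 is known to promote in the conduction system of the heart, stood at 10.02, 7.25 and 8.75 FPKM in the controls and 18.3, 18.6 and 18.7 FPKM in the mutants. It rose 2.14-fold (log2 change 1.02, SE 0.12, adjusted p = 0.0096), a call that ended without control library 3 or mutant library 2. Gja1, the connexin 43 gene, which Irx3 is known to repress there, stood at 55.6 and 56.8 FPKM (adjusted p = 0.919). Kcnd2, a potassium channel gene that Irx5 is known to repress in the ventricle, stood at 1.16 and 1.93 FPKM with no overlap, and Cxcl12, a chemokine gene that Irx5 is known to repress in the embryo, at 54.0 and 73.6 FPKM (adjusted p = 0.111 and 0.170).

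The genes most like each tested member were found from the mean absolute difference, over the 6 libraries, of log2(FPKM + 1) after subtracting each gene's mean, among 11903 genes. For Irx2 these were Nkx2-1 (0.083), Ptch1 (0.088), the receptor and target of hedgehog signalling, and the forkhead gene Foxa2 (0.095). Nkx2-1, Ptch1 (8.24 ± 1.83 to 3.85 ± 0.629 FPKM, adjusted p = 0.0392) and, only just under the threshold, Foxa2 were called as lower, as Irx2 was. Leaving out mutant library 2 or any of the 3 control libraries ended each of these calls. Those of Ptch1 and Foxa2 were lost also without mutant library 3 (adjusted p up to 0.135 and 0.156 by limma). For Irx5 they were Exosc6 (0.077), an RNA exosome subunit, Thbs1 (0.089), which encodes thrombospondin, and Gad1os (0.093). For Irx3 they were Hist1h2bk (0.178), Spata33 (0.199) and Klc3 (0.206), so even the nearest pattern was further from Irx3 than the nearest were from Irx2 or Irx5. Irx5 ranked 29 and Irx3 ranked 231 in likeness to Irx2, and Irx2 ranked 87 in likeness to Irx5. These distances describe 6 libraries and carry no test. They also depend on the pseudocount, which damps the changes of Irx2 more than those of higher genes such as Nkx2-1 and Ptch1. With a pseudocount of 0.1 FPKM the log2 changes were -1.46 for Irx2, -1.17 for Nkx2-1, -1.07 for Ptch1 and -1.46 for Foxa2. The ranking was not repeated with that pseudocount.

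The neighbours of the members on the chromosome were examined within 1 Mb of each cluster. The Irx1, Irx2 and Irx4 cluster spans 1.31 Mb, with 24 other genes in or near it, of which 11 were tested and none called by limma (4 with an unadjusted p under 0.05, beside 2935 of all 12742 tested genes; median change -0.06). Mutants were entirely lower in 5 and entirely higher in 0 of the 11, beside 1859 and 1898 of all tested genes. Past Irx4, the nearest tested genes, Ndufs6 and Mrpl36, both mitochondrial, stood at 552 and 432 FPKM and at 136 and 111 FPKM in controls and mutants (adjusted p = 0.0641 and 0.0837). On the far side of Irx1 the only table gene was Mir466f-4, at the floor in all libraries. The Irx3, Irx5 and Irx6 cluster spans 0.88 Mb, with 18 other genes, of which 10 were tested and 3 fell (Crnde, Ces1d and Ces1f, named after their values were seen), beside 1.63% of all tested genes. Of these 10, 6 had an unadjusted p under 0.05, 3 had mutants entirely lower and 3 entirely higher, and the median change was -0.04. Fto, which borders Irx3, stood at 47.6 and 63.9 FPKM (adjusted p = 0.0799) and Rpgrip1l beyond it at 3.15 and 2.69 FPKM (adjusted p = 0.611). Mmp2, a matrix metalloprotease gene past Irx6, stood at 80.6 and 129 FPKM (adjusted p = 0.0626), and the next genes, Capns2 and Lpcat2, share a locus and were not called. Ces1d (7.07 to 1.90 FPKM) and Ces1f (2.71 to 0.853 FPKM) belong to a family of related carboxylesterase genes, and whether reads are shared among its members was not examined. Neither was called with any control library or mutant library 2 left out, and Ces1f was not called without mutant library 3 either.

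Crnde, a long non-coding RNA gene (chr8:92326031-92356120, minus strand), starts 1675 bases from the locus of Irx5 and runs away from it. It stood at 6.43, 7.65 and 7.05 FPKM in the controls and at 1.01, 1.67 and 3.03 FPKM in the mutants. The groups did not overlap, the difference was 3.70-fold, and the log2 change was -1.53 (SE 0.24, adjusted p = 0.0259), larger in size than that of Irx5 itself (-0.71); the difference between these changes was not tested. Its call ended without the same 4 libraries as that of Irx2. Irx2 has a neighbour of the same arrangement, the non-coding Gm20554 (chr13:72623466-72628564, minus strand), 413 bases from its locus. Gm20554 lay under the filter at 0.289, 0.4998 and 0.437 FPKM in the controls and 0.136, 0.0812 and 0.141 FPKM in the mutants, with no overlap (adjusted p = 0.0776 without a filter). Both non-coding genes were named after their values were seen.

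**Figure D4:**
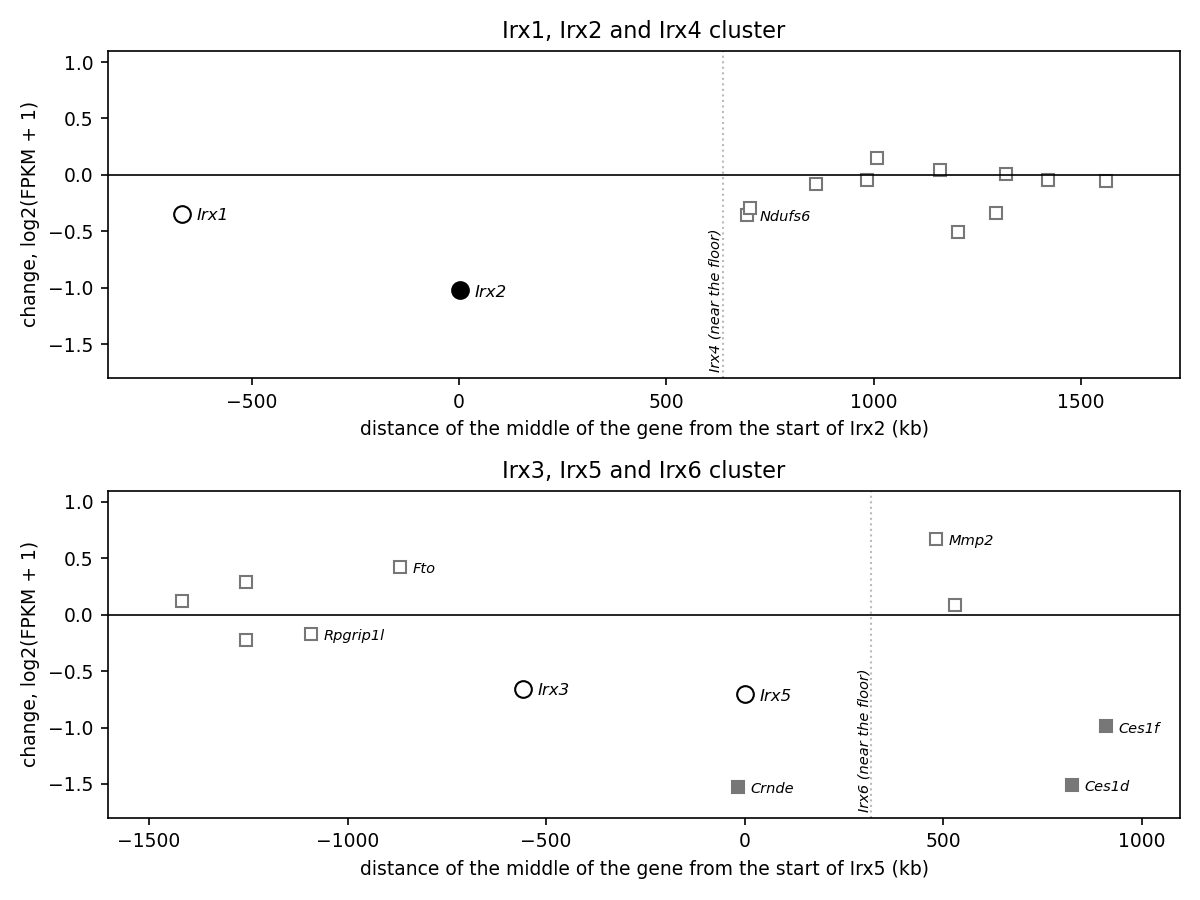
Change (mutant minus control, log2(FPKM + 1)) of the Iroquois genes (circles) and tested genes within 1 Mb of each cluster (squares) against the distance of the middle of each gene from the start of Irx2 or Irx5; filled symbols have an adjusted p under 0.05, and dotted lines mark Irx4 and Irx6, near the floor. Near Irx5, Crnde fell together with 2 carboxylesterase genes further on, while Fto and Mmp2 lie above 0.

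The stretches of 250 bases before the starts of Irx2 and Crnde are shown because these were the called genes at the 2 divergent pairs, and each stretch lies between the non-coding gene and its Iroquois neighbour. They are from RefSeq on GRCm38.p6, 5′ to 3′ toward the start of the named gene, at chr13:72628570-72628819 on the plus strand for Irx2 and chr8:92356121-92356370 on the minus strand for Crnde. Capitals mark GC boxes (GGGCGG) and CCAAT boxes (CCAAT), searched on both strands, so that a box on the other strand appears as its reverse complement.
Irx2: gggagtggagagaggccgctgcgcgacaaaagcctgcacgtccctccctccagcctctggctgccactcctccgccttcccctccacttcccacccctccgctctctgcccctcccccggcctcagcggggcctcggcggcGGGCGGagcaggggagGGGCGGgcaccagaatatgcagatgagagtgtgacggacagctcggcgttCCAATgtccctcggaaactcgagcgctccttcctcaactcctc
Crnde: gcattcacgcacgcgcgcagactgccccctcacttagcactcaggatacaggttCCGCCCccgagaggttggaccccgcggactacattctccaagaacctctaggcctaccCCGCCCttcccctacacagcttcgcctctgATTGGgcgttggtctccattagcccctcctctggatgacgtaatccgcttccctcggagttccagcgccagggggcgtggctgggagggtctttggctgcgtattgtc
Both hold 2 GC boxes and 1 CCAAT box. Those of Irx2 begin 109 and 93 bases (GC boxes) and 43 bases (CCAAT box) before the start, on the plus strand of the gene. Those of Crnde begin 196, 138 and 108 bases before its start, all on the opposite strand, the coding strand of Irx5. Of 32851 promoter stretches of this length, 32.7% held at least 1 GC box and 33.8% at least 1 CCAAT box. The shares with 2 GC boxes, with both motifs or among promoters of like GC content were not counted. GC content was 68.4% for Irx2 and 62% for Crnde, beside a median of 52.4%. The stretch of Irx4, a gene at or near the floor in every library, also held 2 GC boxes, at 68.8% GC, and no CCAAT box. That of Irx3 held neither box. The promoter table held 3 of the 6 members, Irx2, Irx3 and Irx4. None of their stretches held the forkhead site TGTTTNC (found in 17.8% of all promoters), the Iroquois site ACANNTGT (6.31%) or the TALE site TGACAG (15.9%). The motifs TATAAA, in 12.4% of promoters, and AGATAA, in 9.99%, were not found in them either. Such matches describe the letters only.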

How the data were processed

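Per the labels' protocols, RNA of dissected lungs was made into cDNA with a SMARTer Ultra Low Input kit, which does not mark strand, and sequenced as 75 bp read pairs on a NextSeq. The deposited values are FPKM per gene, made by the authors; TopHat, Bowtie2, Cufflinks and mm10 (GRCm38) are named in the submitters' processing notes, with versions and annotation not given in the sources used here. 3 genes with a failure mark were left out. On the log2(FPKM + 1) scale, the genes averaging 1 FPKM or more were tested by limma 3.58.1 (R 4.3.3) with an intensity trend, and p-values were 2-sided, Benjamini-Hochberg adjusted over all 12742 tested genes; permutation tests were 2-sided. Log2 changes on this scale understate those of low genes, so ratios of mean FPKM are given as folds. The fit was tested on simulated data. Fragments were estimated from FPKM steps of low genes and GENCODE M21 lengths; their errors cover counting only. Named genes are the members, Sin3a, up to 4 called genes of each list with a few set ones, the 3 genes most like each tested member, and the 2 nearest neighbours on each side of a cluster. A gene that this rule would name is not reported here. The members and lists were chosen with earlier results of these data known. Alternatives were other pseudocounts, filters, scalings, variance settings, thresholds, a replicate block, a covariate for Y-linked transcripts and each library left out. Fits with no filter combined with other settings, and alternatives for the pairs, were added after seeing the data.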

Additional observations from a re-analysis of the deposited data

How the results depend on the processing

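The change of Irx2 lay between -1.46 and -0.89 over 17 alternatives and was called in 11; with no filter its change was -1.02 (adjusted p = 0.0561). Deviations of libraries with equal numbers correlated at -0.09, -0.08 and -0.03. These values show no pairing by number but, with 3 libraries a group, cannot exclude it. With the replicate block Irx2 was at -1.02 (adjusted p = 0.0895 by limma), and 52 genes and 0 Iroquois genes were called. Of the lists, 4 epithelium and 2 mesenchyme markers then fell and no other member was called. With the block and no filter 1 gene and 0 Iroquois genes were called. Irx3 was called in none (-1.02 to -0.30). Irx5 (-0.95 to -0.53) was called only with array weights (-0.57, adjusted p = 0.0101), a fit that stopped before reaching its tolerance and called 4497 genes, 2 of them Iroquois. With a library left out, changes ranged from -1.14 to -0.89 for Irx2, -0.97 to -0.30 for Irx3 and -0.82 to -0.53 for Irx5, with 52 to 795 genes and 0 to 1 Iroquois genes called; with no filter as well, 1 to 76 genes (22, 34 and 32 without control library 1, 2 and 3, and 76, 1 and 46 without mutant library 1, 2 and 3) and 0 Iroquois genes were called. At an adjusted p under 0.10 the counts were 1138 and 2, with no filter 242 and 0, with no filter and median-of-ratios scaling 260 and 0, and after removing globin and small RNA genes 1024 genes (845 higher, 179 lower, beside 218 and 208; that scaling moved the median change to 0.11). A pseudocount of 0.1 FPKM moved the changes of Irx1, Irx4 and Irx6 from -0.35, -0.04 and -0.00443 to -0.64, -0.28 and -0.0382. A mean of at least 5 FPKM left no Iroquois gene. Irx2 against the epithelium markers turned to 0.275 with Epcam alone, and Irx3 ranged from -0.0498 (without control library 2) to 0.409 with a library left out. Irx3 minus Irx5 turned to -0.0652 with a pseudocount of 0.1 FPKM and ranged from -0.149 to 0.235 with a library left out. Sox9 ranged from -0.04 to 0.12, turning to -0.0409, -0.0197 and -0.033 without control library 1, mutant library 2 and mutant library 3. The causes were not tested. At 0 to 3 fragments a library, depth limits Irx4 and Irx6.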
